A study of Danio rerio with 26 samples.

Results

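Potassium channel genes were taken as every gene whose symbol on the array platform begins with kcn, whatever its case. There were 119 such genes among the 19260 genes measured, in 19 subfamilies named by the letters after kcn. Symbols that differ in case were kept as separate genes, so KCNK12 and kcnk12 count as 2, and neither was called between regions. Each gene was read from 1 probe set, the one whose average across the 26 arrays was highest, and probe sets annotated to several genes were left out. The kcnj subfamily was the largest with 30 genes, followed by kcnk with 20, kcnh with 10 and kcna with 8. The subfamilies kcnip and kcnq had 7 genes each, kcnc 6, kcng and kcnn 5 each, and the other 10 subfamilies had 1 to 3.

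All fish carried the Tg(gfap:gfp)mi2001 transgene, which expresses green fluorescent protein from the promoter of gfap, a radial glial gene, and all were 3 to 6 months old. RNA came from 3 parts of the telencephalon: the medial neurogenic zone (here medial zone), the dorsal subventricular zone (dorsal SVZ) and the dorsal parenchyma. Medial zone arrays comprised 2 from unlesioned fish, 4 from day 2 after a stab wound and 3 from day 7. Dorsal SVZ arrays comprised 3 at each of these times, and parenchyma arrays comprised 2 from unlesioned fish, 3 from day 2 and 3 from day 7. The treatment text describes injections through a hole in the skull, whereas the sample labels name a stab wound, and the design text does not mention the medial zone. The labels call the arrays biological replicates without giving the number of fish behind each, so the p-values measure the spread between arrays. The labels name no cell sorting, and the sources are given as tissue.

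Potassium channels let potassium ions cross the membrane and so set the resting potential, end action potentials and control how fast a neuron can fire again. The voltage-gated families open on depolarisation, the inward rectifiers hold the membrane near the potassium equilibrium potential, and the tandem-pore channels carry a background leak. In the brain, glial inward rectifiers also take up the potassium that active neurons release. In the adult zebrafish telencephalon, radial glia line the ventricle and serve as neural stem cells, while most mature neurons lie in the parenchyma.

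Levels are log2 intensities as deposited by the authors, and a difference of 1 is a doubling on that scale. The values came without detection calls, so the median of the whole table, 3.09, was used to mark low signal. Array medians ran from 3.01 to 3.21, and correlations between arrays ran from 0.91 to 0.98. The day 2 replicate 1 and day 7 replicate 3 parenchyma arrays had the lowest precision weights, 0.52 and 0.49. A gene was called in a comparison when limma gave it a Benjamini-Hochberg adjusted p under 0.05 over all 19260 genes. Of the radial glia markers measured, 6 of 9 were higher in the dorsal SVZ than in parenchyma and 6 of 9 were higher in the medial zone than in parenchyma. The marker gfap itself was not among them: its median was 7.44 in the medial zone, 7.26 in the dorsal SVZ and 8.08 in the parenchyma. Markers of the subpallium, the ventral telencephalic territory that makes inhibitory neurons, were higher in the medial zone than in the dorsal SVZ for 9 of 9 genes, with a median log2 difference of 3.69. The microglia and macrophage markers were higher at day 2 than in unlesioned parenchyma for 11 of 12 genes, with a median log2 difference of 2.94. In tissue arrays like these, fewer cells of a type and less RNA per cell cannot be told apart.

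Most kcn genes were above low signal somewhere. A mean over the table median in at least 1 of the 9 groups was found for 96 of the 119 genes, or 80.7%, against 81.5% of all genes. All 9 group means were above the table median for 67 kcn genes, and none was for 23. The gene with the widest spread of group means was kcnj10b, with means between 4.78 and 9.45 and an SD of 1.96. The inward rectifier genes kcnj19b and kcnj13 followed with SDs of 1.31 and 1.24, and the channel partner gene kcnip1a came next, with group means between 4.72 and 8.03 and an SD of 1.16. At the other end, the SD of the 9 group means was 0.07 for both kcnq1.1 and kcnk5b, whose highest group means were 2.96 and 2.72, below the table median. Within kcnn, the calcium-activated channels, the means of kcnn1a ran from 4.84 to 5.44 and those of kcnn1b from 4.68 to 5.20.

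Nearly all calls among kcn genes were between regions. Averaged over the 3 times, 44 kcn genes were called between the medial zone and the parenchyma, 15 higher and 29 lower, while 34.1% of all genes were called there, 20.6% higher and 13.4% lower. Between the dorsal SVZ and the parenchyma 25 kcn genes were called, 4 higher and 21 lower, against 19.2% of all genes, 11.9% higher and 7.28% lower. Between the medial zone and the dorsal SVZ 35 were called, 24 higher and 11 lower, against 19.6% of all genes, 11.3% higher and 8.27% lower. In all, 62 of the 119 genes, or 52.1%, were called in at least 1 of the 3 region comparisons, against 42.7% of all genes. Every one of the 3 called 6 kcn genes, a count for which the share of all genes was not computed, and 57 were called in none.

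The direction was uneven. A positive difference was found for 25 of 119 kcn genes, or 21%, in the dorsal SVZ against the parenchyma, whereas 48.1% of all genes were positive. In the medial zone against the parenchyma 37 kcn genes, or 31.1%, were positive, against 50.2% of all genes. In the medial zone against the dorsal SVZ 64 kcn genes, or 53.8%, were positive, against 51.2% of all genes. The median log2 differences of the kcn genes were -0.16, -0.16 and 0.02 in these 3 comparisons, taken in the same order. When each array's median was subtracted first, the medial zone and the parenchyma differed in 36 kcn genes, with 16 higher and 20 lower. Without this step there were 44, with 15 higher and 29 lower, so only the count on the lower side fell. Without replicate 1 of the unlesioned medial zone, the count between the medial zone and the dorsal SVZ was 23 rather than 35. In the dorsal SVZ the neuronal markers moved in part the same way: 6 of 14 were lower than in parenchyma and none was higher. The list's mean per array ran from 8.07 to 8.59 in the dorsal SVZ and from 8.54 to 9.12 in the parenchyma. Of the 14 neuronal markers, those given here for the medial zone went both ways, and the others are left out. Median levels of elavl4 and gad2 were 9.91 and 8.67 there, against 9.29 and 7.62 in the parenchyma. Those of snap25a, snap25b and slc17a7a were 9.885, 9.18 and 5.39, against 10.27, 9.88 and 6.58. The part of neuron content in the kcn differences was not tested.

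**Figure D1:**
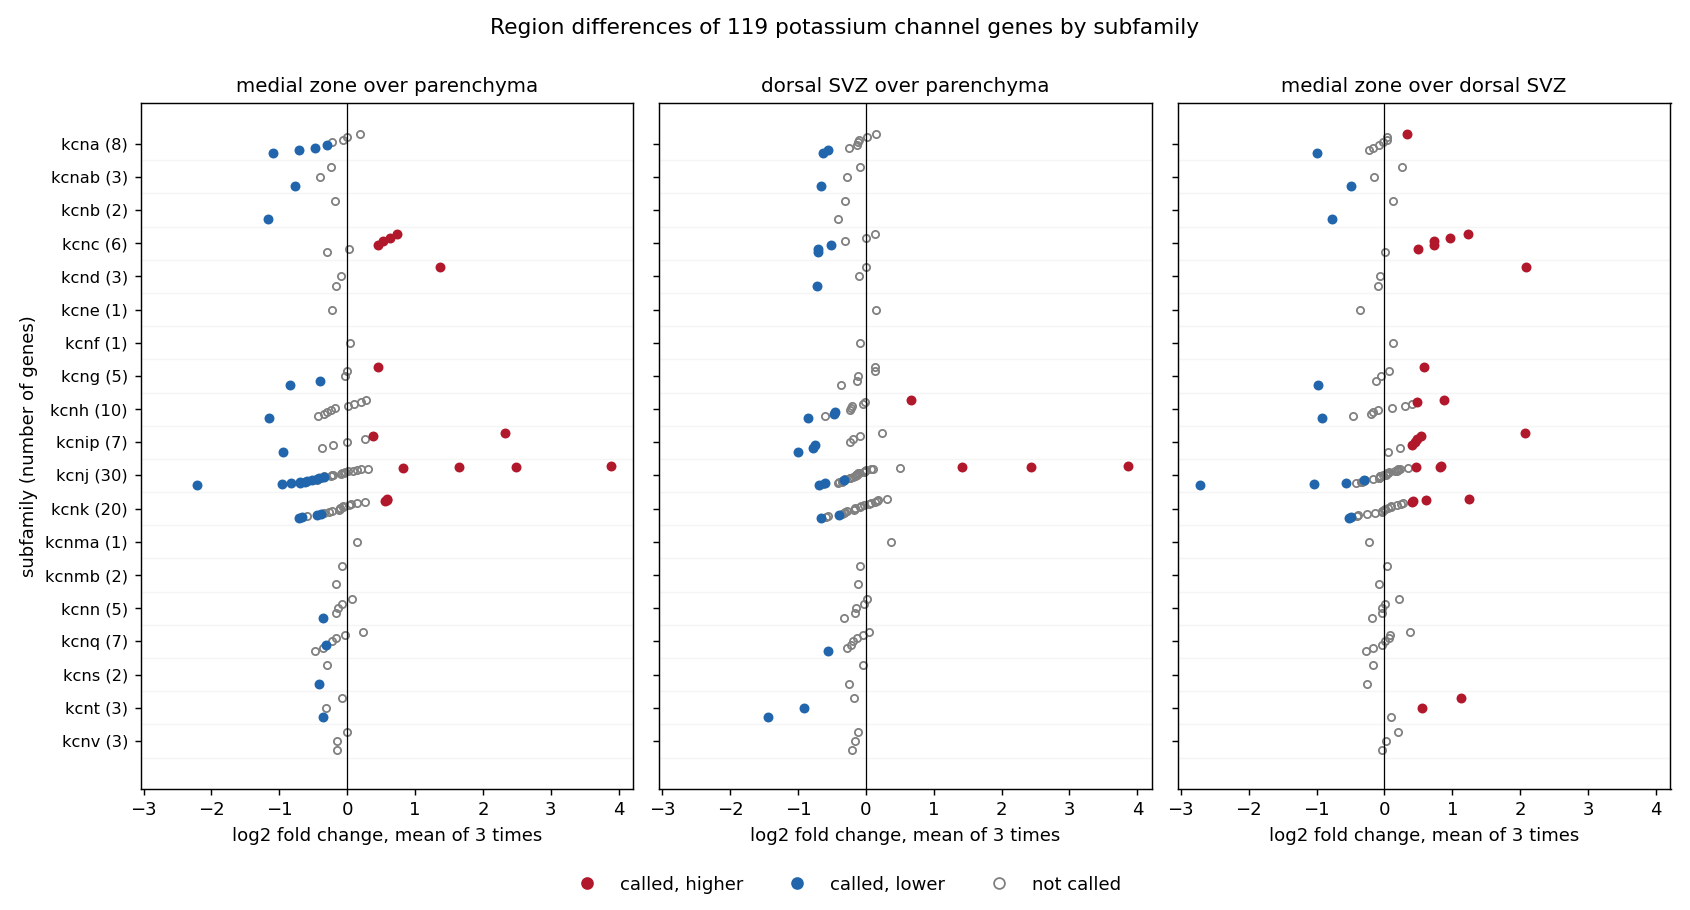
Log2 fold change of each of the 119 potassium channel genes (x axis) by subfamily (y axis, number of genes in brackets) for medial zone over parenchyma, dorsal SVZ over parenchyma and medial zone over dorsal SVZ, averaged over 3 times. Filled points passed the test (red higher, blue lower), open points did not. Blue points outnumber red against the parenchyma, and the kcnc and kcnip subfamilies lie mostly to the right in the last panel.

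Of the calls, 24 of 25 between the dorsal SVZ and the parenchyma had the same sign at each of the 3 times, as did 43 of 44 between the medial zone and the parenchyma and 35 of 35 between the medial zone and the dorsal SVZ. The calls rest on the average of the same 3 differences, so this agreement was in part built in. The share among all called genes was not computed. An equal sign does not mean an equal size: kcnip4b in the medial zone minus parenchyma gave 0.005 unlesioned, 0.61 at day 2 and 0.52 at day 7. The exception against the dorsal SVZ was kcnq3, a subunit of the M-current channel that damps repetitive firing. Its dorsal SVZ minus parenchyma difference was 0.09 in unlesioned fish, -0.74 at day 2 and -1.01 at day 7. On the other probe set of kcnq3 the dorsal SVZ means were 4.92, 4.69 and 4.93 in the same order. The parenchyma means there were 5.09, 4.92 and 5.18, higher at each time, so the change of sign was not seen. The exception in the medial zone was kcnt2b, with a medial zone minus parenchyma difference of -0.78 in unlesioned fish, -0.31 at day 2 and 0.03 at day 7.

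Arrays of different regions did not overlap for a smaller set. The dorsal SVZ arrays lay above all parenchyma arrays for 3 kcn genes and below for 4, while 4.4% of all genes had no overlap, 3.23% higher and 1.17% lower. The medial zone arrays lay above all parenchyma arrays for 5 and below for 3, against 6.9% of all genes, 4.77% higher and 2.13% lower. The medial zone arrays lay above all dorsal SVZ arrays for 6 and below for 1, against 4.94% of all genes, 2.6% higher and 2.34% lower.

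Inward rectifiers of glia and epithelia made up the group that was higher in both ventricular regions. The gene kcnj10b encodes a form of Kir4.1, the glial channel that in mammals clears extracellular potassium. Its lowest, median and highest levels were 8.33, 9.21 and 9.76 over 9 medial zone arrays, 8.76, 9.20 and 9.68 over 9 dorsal SVZ arrays, and 4.66, 5.33 and 6.06 over 8 parenchyma arrays. No ventricular array came within 2 log2 units of a parenchyma array. The log2 difference was 3.89 (SE 0.17, limma adjusted p = 4.8e-14) for the medial zone and 3.86 (SE 0.17, adjusted p = 3.1e-14) for the dorsal SVZ over the parenchyma, which is 14.8-fold and 14.5-fold. Between the medial zone and the dorsal SVZ the difference was 0.02 (SE 0.17, limma adjusted p = 0.95).

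The gene kcnj13 encodes a form of Kir7.1, a channel of transporting epithelia such as choroid plexus and retinal pigment epithelium in mammals. It measured 4.98, 5.45 and 6.18 (lowest, median, highest) in the medial zone, 4.79, 5.52 and 6.02 in the dorsal SVZ, and 2.81, 3.11 and 3.46 in the parenchyma. The parenchyma values sat around the table median, so its log2 differences of 2.49 (SE 0.18) for the medial zone and 2.44 (SE 0.18) for the dorsal SVZ are limited by low signal at their lower end. The gene kcnj1b encodes a ROMK-type rectifier, known in mammals from the kidney tubule. It measured 4.79, 5.79 and 6.11 in the medial zone, 4.99, 5.28 and 5.75 in the dorsal SVZ, and 3.55, 4.00 and 4.30 in the parenchyma. Its log2 differences over the parenchyma were 1.65 (SE 0.15) for the medial zone and 1.42 (SE 0.15) for the dorsal SVZ. For both genes the ventricular and parenchyma arrays did not overlap. Neither was called between the medial zone and the dorsal SVZ, with differences of 0.06 (SE 0.17) for kcnj13 and 0.23 (SE 0.15) for kcnj1b. The other copy of kcnj10, kcnj10a, differed from the parenchyma by -0.10 (SE 0.25) in the medial zone and -0.13 (SE 0.24) in the dorsal SVZ and was not called between any regions. The 6 members of the kcnj1a cluster, kcnj1a.1 to kcnj1a.6, were not called between regions either.

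The mean of the 9 radial glia markers per array ran from 8.15 to 8.58 in the medial zone, from 8.03 to 8.55 in the dorsal SVZ and from 5.86 to 7.05 in the parenchyma, again without overlap. The stem cell gene her4.1, a Notch target, was 4.61 log2 units higher in the dorsal SVZ than in parenchyma (SE 0.12), and the glutamine synthetase gene glula was 1.63 higher (SE 0.12). The parenchyma levels of her4.1 were 2.38, 2.68 and 3.52 (lowest, median, highest), so its difference is limited by low signal at the lower end. The part of radial glia content in the levels of kcnj10b, kcnj13 and kcnj1b was not tested. The fourth kcn gene higher in the dorsal SVZ than in parenchyma was KCNH4, an ether-a-go-go-like voltage-gated channel. It measured 5.11, 6.05 and 6.48 in the dorsal SVZ and 4.57, 5.37 and 6.21 in the parenchyma, with a log2 difference of 0.67 (SE 0.19, limma adjusted p = 0.012), and its arrays overlapped. The KCNH4 difference was 1.21 in unlesioned fish, 0.51 at day 2 and 0.29 at day 7.

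**Figure D2:**
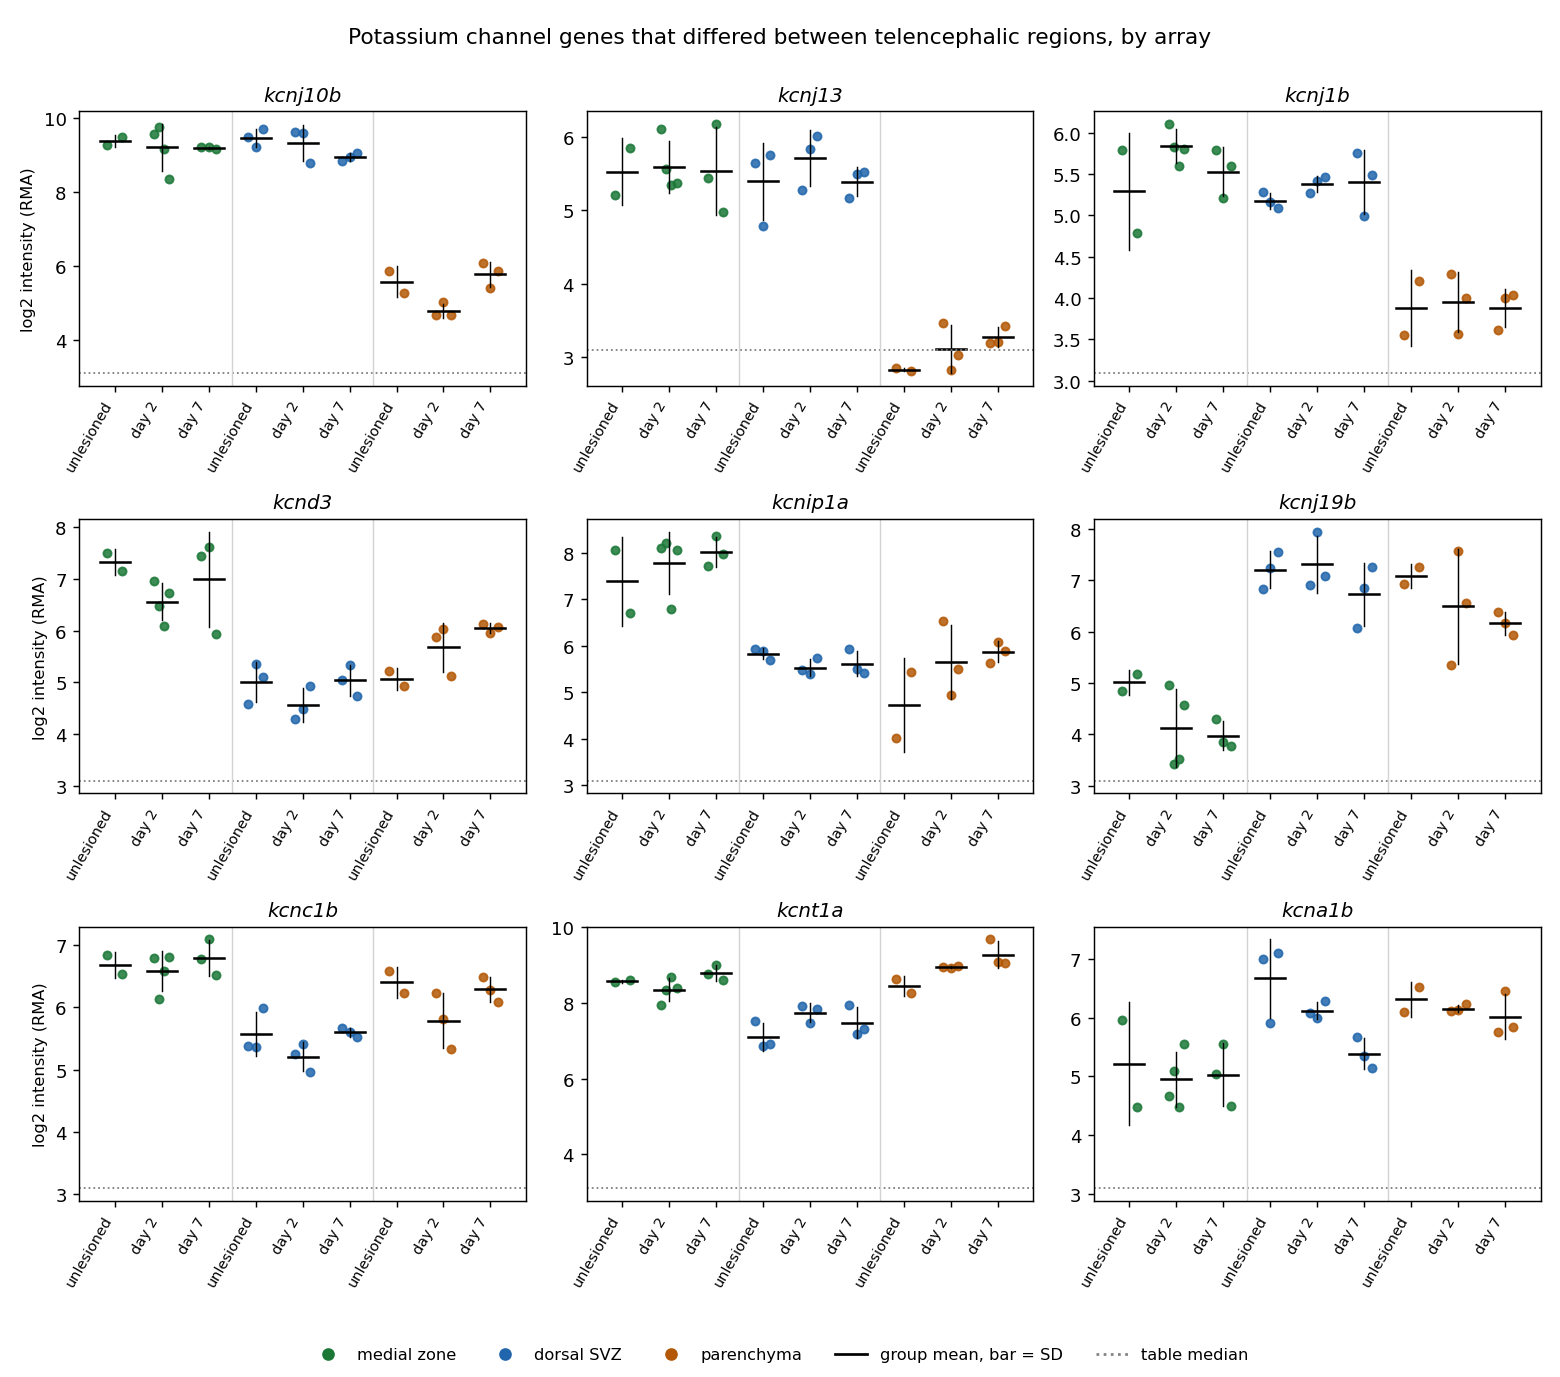
Log2 intensity (y axis) of 9 potassium channel genes on every array (points) in the medial zone, dorsal SVZ and parenchyma at 3 times (x axis). Bars show the group mean and SD, and the dotted line is the table median of 3.09. The genes kcnj10b, kcnj13 and kcnj1b are high in both ventricular regions, kcnd3 and kcnip1a in the medial zone, and kcnj19b and kcna1b are low in the medial zone.

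A set of voltage-gated channels and their partners was higher in the medial zone than in either dorsal region. The gene kcnd3 encodes a Kv4 channel, which carries the fast inactivating A-type current of dendrites. It measured 5.94, 6.95 and 7.61 in the medial zone, 4.28, 4.92 and 5.35 in the dorsal SVZ, and 4.92, 5.91 and 6.12 in the parenchyma. Every medial zone array was above every dorsal SVZ array, while 2 medial zone values lay within the parenchyma range. The log2 difference was 2.09 over the dorsal SVZ (SE 0.20, limma adjusted p = 2.6e-08) and 1.36 over the parenchyma (SE 0.20, adjusted p = 1.4e-05), and the dorsal SVZ differed from the parenchyma by -0.73 (SE 0.20). The differences from the parenchyma were uneven over time. For the dorsal SVZ they were -0.06 in unlesioned fish, -1.11 at day 2 and -1.01 at day 7. For the medial zone they were 2.26, 0.89 and 0.95 in the same order. The other Kv4 genes, kcnd1 and kcnd2, were not called between any regions, with differences between the medial zone and the dorsal SVZ of -0.07 and -0.09.

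The kcnip genes encode calcium-binding proteins that join Kv4 channels and alter their inactivation and surface number. The gene kcnip1a measured 6.72, 8.06 and 8.37 in the medial zone, 5.40, 5.69 and 5.93 in the dorsal SVZ, and 4.01, 5.57 and 6.53 in the parenchyma. Its medial zone arrays lay above all others. The log2 difference was 2.08 over the dorsal SVZ (SE 0.24, limma adjusted p = 4.7e-07) and 2.32 over the parenchyma (SE 0.25, adjusted p = 9.4e-08). Of the 7 kcnip genes, 5 were called higher in the medial zone than in the dorsal SVZ and none lower, against 11.3% and 8.27% of all genes. The 5 were kcnip1a, kcnip3a at 0.54, kcnip4b at 0.47, kcnip3b at 0.45 and kcnip1b at 0.41. The differences of kcnip4b and kcnip3b lie at low signal, since neither had a group mean above the table median. Against the parenchyma the family divided, with kcnip1a and kcnip4b higher and kcnip4a lower in the medial zone. The gene kcnip4a measured 5.24, 5.94 and 6.60 in the medial zone, 5.27, 5.87 and 6.46 in the dorsal SVZ, and 5.87, 6.96 and 7.36 in the parenchyma, differing from the parenchyma by -0.94 in the medial zone and -0.999 in the dorsal SVZ (SE 0.21 each). In the dorsal SVZ, kcnip1b at -0.79 and kcnip3a at -0.75 were also lower than in parenchyma (SE 0.14 each).

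The dipeptidyl peptidase-like genes dpp6a and dpp6b encode the other accessory subunits of Kv4 channels. In the medial zone they were 0.47 (SE 0.16) and 0.53 (SE 0.11) higher than in the dorsal SVZ, and 1.06 (SE 0.16) and 0.60 (SE 0.12) higher than in parenchyma, all 4 called. The pore gene kcnd3, the partner kcnip1a and both dpp6 genes therefore stood higher in the medial zone in the same comparisons. Of all genes, 11.3% were higher there than in the dorsal SVZ and 20.6% higher than in parenchyma. Other Kv4 pore and partner genes did not share this: kcnd1 and kcnd2 were not called, and kcnip4a was lower than in parenchyma, at -0.94.

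The kcnc genes encode Kv3 channels, which switch fast enough to allow high-frequency firing. Of the 6, 5 were called higher in the medial zone than in the dorsal SVZ and none lower, against 11.3% and 8.27% of all genes. The median log2 difference was 0.73 over the subfamily against 0.01 over all genes. The gene kcnc1b led, measuring 6.13, 6.78 and 7.09 in the medial zone, 4.96, 5.41 and 5.98 in the dorsal SVZ, and 5.33, 6.23 and 6.58 in the parenchyma, with a log2 difference of 1.23 over the dorsal SVZ (SE 0.14, limma adjusted p = 3.2e-07). The medial zone and dorsal SVZ arrays of kcnc1b did not overlap. The gene kcnc2 measured 4.46, 4.70 and 4.86 in the medial zone, 2.96, 3.81 and 4.08 in the dorsal SVZ, and 3.74, 4.26 and 4.77 in the parenchyma, with a log2 difference of 0.96 (SE 0.14) over the dorsal SVZ and no overlap with it. The differences over the dorsal SVZ were 0.73 for both kcnc4 (SE 0.15) and kcnc1a (SE 0.16) and 0.49 for kcnc3a (SE 0.16). The remaining gene, kcnc3b, differed by 0.00 (SE 0.19). Against the parenchyma, 4 of the 6 were higher in the medial zone, as were 20.6% of all genes. These were kcnc4 at 0.73, kcnc3a at 0.64, kcnc1b at 0.53 and kcnc2 at 0.45. The kcnc3a difference was uneven over time, at 1.27 in unlesioned fish, 0.38 at day 2 and 0.25 at day 7. In the dorsal SVZ 3 of the 6 were lower than in parenchyma, as were 7.28% of all genes. These were kcnc1a at -0.71, kcnc1b at -0.70 and kcnc2 at -0.51.

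The sodium-activated channel genes kcnt1a and kcnt2b, which encode Slack and Slick type channels, were lowest in the dorsal SVZ. The gene kcnt1a measured 7.96, 8.59 and 9.01 in the medial zone, 6.85, 7.46 and 7.94 in the dorsal SVZ, and 8.26, 8.96 and 9.68 in the parenchyma. All dorsal SVZ arrays were below all arrays of the other regions. The log2 difference was -1.45 for the dorsal SVZ against the parenchyma (SE 0.14, limma adjusted p = 2.8e-08) and 1.13 for the medial zone against the dorsal SVZ (SE 0.14, adjusted p = 1.1e-06), and it was not called between the medial zone and the parenchyma (-0.32, adjusted p = 0.088). The gene kcnt2b measured 5.13, 5.64 and 5.96 in the medial zone, 4.90, 5.02 and 5.17 in the dorsal SVZ, and 5.31, 5.82 and 6.50 in the parenchyma. It was called in all 3 comparisons, at -0.35 for the medial zone and -0.91 for the dorsal SVZ against the parenchyma, and at 0.56 for the medial zone against the dorsal SVZ (SE 0.11 each).

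Other genes were higher in the medial zone than in the dorsal SVZ. The tandem-pore leak channel gene kcnk13a measured 3.99, 4.74 and 5.36 in the medial zone, 3.23, 3.60 and 4.00 in the dorsal SVZ, and 3.53, 4.34 and 5.38 in the parenchyma, with log2 differences of 1.25 (SE 0.20) over the dorsal SVZ and 0.59 (SE 0.21) over the parenchyma. The strong inward rectifier gene kcnj2a measured 3.77, 4.49 and 5.15 in the medial zone, 3.16, 3.74 and 4.34 in the dorsal SVZ, and 2.90, 3.70 and 4.22 in the parenchyma, and was 0.82 higher in the medial zone than in either other region (SE 0.17 each). The ether-a-go-go channel gene kcnh5b was 0.88 higher in the medial zone than in the dorsal SVZ (SE 0.25, limma adjusted p = 0.012), and the G-protein-gated rectifier gene kcnj9 was 0.83 higher (SE 0.22, adjusted p = 0.0091). Without replicate 1 of the unlesioned medial zone the adjusted p was 0.077 for kcnh5b and 0.059 for kcnj9. Neither kcnh5b nor kcnj9 was called between the medial zone and the parenchyma. The differences of kcnj2a and kcnk13a from the parenchyma were uneven over time. For kcnj2a the medial zone minus parenchyma difference was 0.295 in unlesioned fish, 0.71 at day 2 and 1.44 at day 7. For kcnk13a it was 1.13, 0.36 and 0.28 in the same order.

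A smaller set was low in the medial zone. The inward rectifier family gene kcnj19b measured 3.42, 4.30 and 5.17 in the medial zone, 6.06, 7.08 and 7.95 in the dorsal SVZ, and 5.34, 6.46 and 7.57 in the parenchyma. All medial zone arrays were below all arrays of the other regions. The log2 difference was -2.71 against the dorsal SVZ (SE 0.26, limma adjusted p = 3.4e-08) and -2.21 against the parenchyma (SE 0.27, adjusted p = 7.6e-07), the largest fall among kcn genes in each of these comparisons. The strong inward rectifier gene kcnj12a measured 3.49, 4.38 and 5.02 in the medial zone, 4.84, 5.49 and 6.24 in the dorsal SVZ, and 5.16, 5.27 and 5.86 in the parenchyma, with log2 differences of -1.04 and -0.97 (SE 0.17 and 0.18) against the dorsal SVZ and the parenchyma.

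Some delayed rectifier genes and a silent subunit gene were also in this set. The gene kcna1b encodes a Kv1 channel of axons and measured 4.48, 5.04 and 5.96 in the medial zone, 5.15, 5.99 and 7.10 in the dorsal SVZ, and 5.75, 6.12 and 6.52 in the parenchyma. It differed by -0.99 and -1.10 (SE 0.21 each) in the medial zone from the dorsal SVZ and the parenchyma. The Kv2 channel gene kcnb2b measured 4.19, 4.95 and 5.34 in the medial zone, 5.25, 5.66 and 6.22 in the dorsal SVZ, and 5.55, 6.11 and 6.60 in the parenchyma, with log2 differences of -0.77 (SE 0.16) and -1.17 (SE 0.17). The gene kcng1 encodes a subunit that forms no channel alone and combines with Kv2 subunits, and it measured 4.94, 5.96 and 6.43 in the medial zone, 6.39, 7.02 and 7.23 in the dorsal SVZ, and 6.42, 6.78 and 7.20 in the parenchyma. Its log2 differences were -0.98 (SE 0.14) and -0.85 (SE 0.15). The other Kv2 gene, kcnb2a, was not called, at 0.13 (SE 0.15) and -0.18 (SE 0.15) at low signal. Another silent subunit gene, kcng2, was higher in the medial zone, by 0.58 (SE 0.16) over the dorsal SVZ and 0.45 (SE 0.16) over the parenchyma, so neither the Kv2 genes nor the kcng genes moved as a whole. The ether-a-go-go-like gene KCNH3 measured 4.80, 5.71 and 6.76 in the medial zone, 6.31, 6.53 and 7.13 in the dorsal SVZ, and 5.93, 6.92 and 7.45 in the parenchyma, with differences of -0.91 (SE 0.19) and -1.15 (SE 0.20).

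The ATP-sensitive channel genes kcnj11 and kcnj8 and the related gene kcnj11l were called between regions, each with its highest mean in the parenchyma. For kcnj8 the medial zone minus parenchyma difference was -0.44 in unlesioned fish, -0.79 at day 2 and -0.87 at day 7. For kcnj11l the dorsal SVZ minus parenchyma difference was -0.71, -0.62 and -0.75 in the same order, and these arrays did not overlap. The pore gene kcnj11 was -0.56 (SE 0.16, limma adjusted p = 0.013) in the medial zone against the dorsal SVZ, a call that was lost without replicate 2 of the unlesioned medial zone (adjusted p = 0.056), and -0.60 (SE 0.17) against the parenchyma. The gene abcc8, whose product is the sulphonylurea receptor that assembles with this pore, differed from its parenchyma level by -0.99 (SE 0.12) in the medial zone and -0.83 (SE 0.12) in the dorsal SVZ. The mechano-gated leak channel gene kcnk10b was -0.52 (SE 0.16, limma adjusted p = 0.026) in the medial zone against the dorsal SVZ. That call was lost with the replicate number as a block (limma adjusted p = 0.053) and without any of 4 arrays, the unlesioned replicate 1 and day 2 replicate 1 of the dorsal SVZ and the unlesioned replicate 1 and day 7 replicate 3 of the medial zone, with adjusted p values between 0.061 and 0.071. In the G-protein-gated group, kcnj6 was -0.83 (SE 0.19) and kcnj3b -0.52 (SE 0.16) in the medial zone against the parenchyma. The kcnj6 difference was -0.04 in unlesioned fish, -1.13 at day 2 and -1.33 at day 7. Of the same group, kcnj3a, at -0.08, and kcnj9, at 0.18, 0.26 and 0.17 at these times, were not called in this comparison.

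Territory markers moved with the medial zone. The mean of the 9 subpallial markers per array ran from 7.21 to 8.28 in the medial zone, from 4.12 to 4.65 in the dorsal SVZ and from 4.88 to 6.42 in the parenchyma. Of 7 pallial markers, 6 were lower and 1 was higher in the medial zone than in the dorsal SVZ, and eomesa, a pallial transcription factor gene, differed by -2.62 (SE 0.26). The glutamate decarboxylase genes gad1b and gad2, which mark inhibitory neurons, were 3.03 and 3.04 log2 units higher in the medial zone than in the dorsal SVZ (SE 0.15 each). The part of territory in the levels of the kcn genes was not tested.

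**Figure D3:**
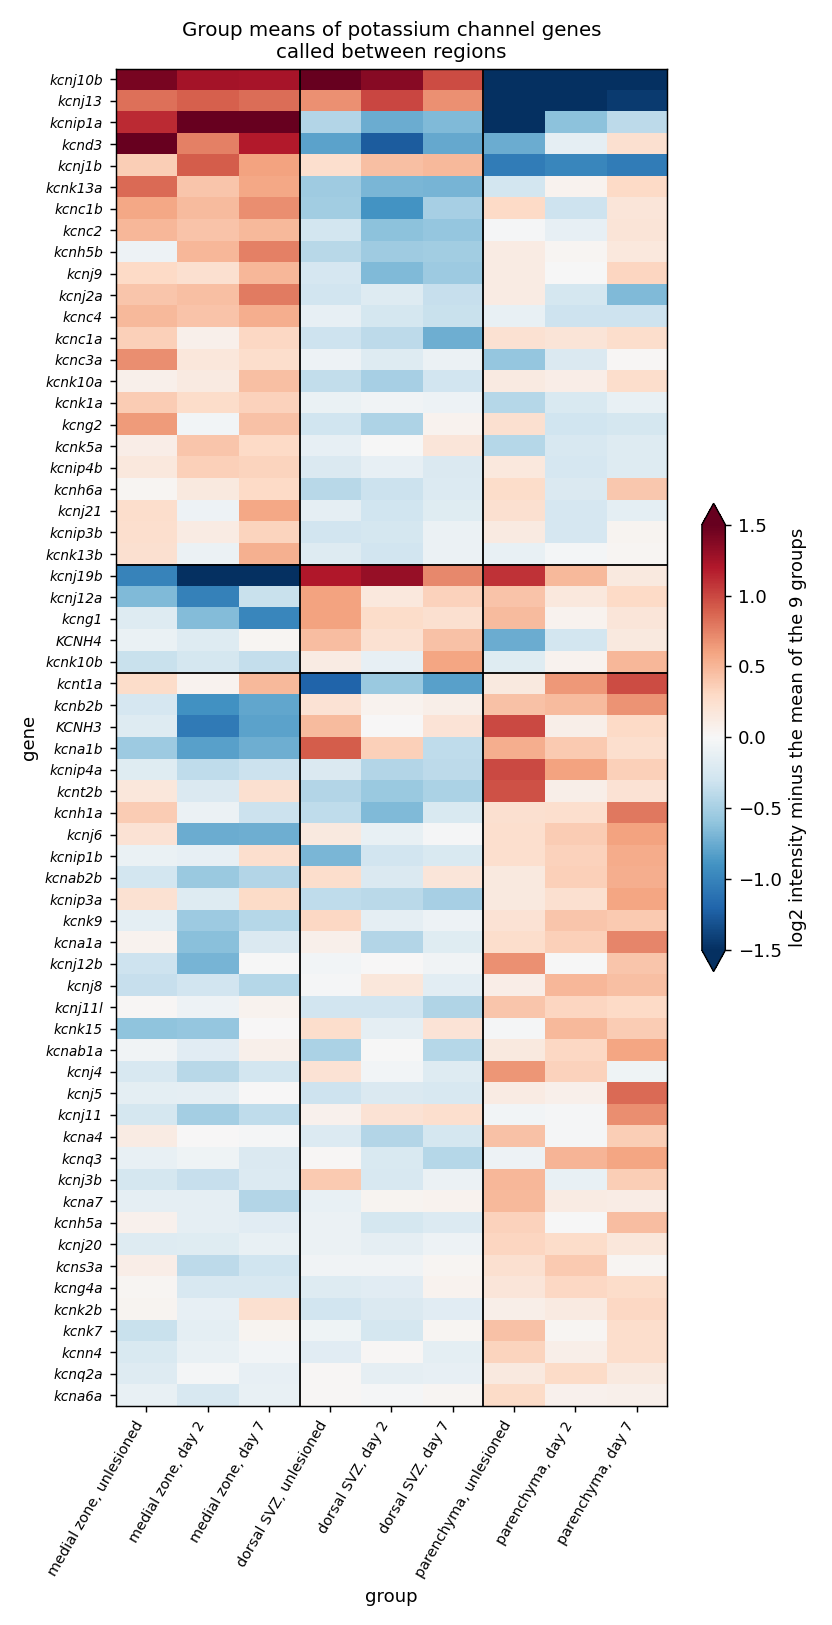
Group means of the 62 potassium channel genes called in at least 1 region comparison (rows) in the 9 groups (columns), as log2 intensity minus the gene's mean of the 9 groups, with colours capped at 1.5. Rows are sorted by the region with the highest mean over the 3 times: 23 genes in the medial zone, 5 in the dorsal SVZ and 34 in the parenchyma.

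Sorted by where the mean over the 3 times was highest, 34 of the 62 called genes peaked in the parenchyma, 23 in the medial zone and 5 in the dorsal SVZ. The 5 were kcnj19b, kcnj12a, kcng1, KCNH4 and kcnk10b. Of these, KCNH4 alone was called as higher in the dorsal SVZ than in parenchyma. The same split among all called genes was not computed, and a highest mean did not require a call over the next region. The medial zone count included kcnj10b, only 0.02 above its dorsal SVZ mean, and kcnj13, and neither was called between these 2 regions.

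Calls were also counted by subfamily, and differences between subfamilies were not tested. Of all genes, 34.1% were called between the medial zone and the parenchyma, 20.6% higher and 13.4% lower. Between the dorsal SVZ and the parenchyma 19.2% were called, 11.9% higher and 7.28% lower. In kcnj, 11 of 30 genes were lower and 4 higher in the medial zone than in parenchyma, with a median log2 difference of -0.23. In kcnk, 4 of 20 were lower and 3 higher, with a median of -0.10. In kcnh, 1 of 10 was lower and none higher in the medial zone, while 3 were lower and 1 higher in the dorsal SVZ than in parenchyma, kcnh1a among the lower ones at -0.85 (SE 0.21). In kcna, 4 of 8 were lower in the medial zone than in parenchyma and none higher. In kcnq, the M-current family, 1 of 7 was lower in the medial zone and 1 of 7 lower in the dorsal SVZ than in parenchyma. No gene of kcnv, kcne, kcnf, kcnma or kcnmb was called in any of the 3 region comparisons, where 42.7% of all genes were called in at least 1. These are small subfamilies. In kcnn 1 of 5 was called, lower in the medial zone than in parenchyma.

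With unlesioned fish alone the counts were smaller. Between the unlesioned medial zone and parenchyma 12 kcn genes were called, 8 higher and 4 lower, against 10.5% of all genes, 7.28% higher and 3.26% lower. Between the unlesioned dorsal SVZ and parenchyma 9 were called, 5 higher and 4 lower, against 6.69% of all genes, 4.89% higher and 1.81% lower. Between the unlesioned medial zone and dorsal SVZ 8 were called, 5 higher and 3 lower, against 4.15% of all genes, 2.37% higher and 1.79% lower. The log2 difference of kcnj10b over the unlesioned parenchyma was 3.81 (SE 0.34) in the medial zone and 3.89 (SE 0.31) in the dorsal SVZ. Between the unlesioned medial zone and dorsal SVZ, kcnd3 differed by 2.32 (SE 0.37), kcnt1a by 1.48 (SE 0.26) and kcnj19b by -2.20 (SE 0.49). The gene kcna3a was higher than in unlesioned parenchyma in both other regions, by 0.77 (SE 0.20) in the medial zone and 0.97 (SE 0.18) in the dorsal SVZ, although it was not called when the 3 times were averaged. These calls were lost without replicate 1 of the unlesioned parenchyma (adjusted p = 0.17 for the medial zone and 0.051 for the dorsal SVZ), and for the medial zone also without either of its unlesioned arrays. The count between the unlesioned medial zone and parenchyma fell to 6 or 7 without either medial zone array or without replicate 2 of the parenchyma. The count between the unlesioned medial zone and dorsal SVZ was 4 or 5 without either medial zone array or without replicate 1 or 3 of the dorsal SVZ.

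Zebrafish keep many gene copies from a genome duplication in the fish lineage, named with a final a and b. The kcn genes held 27 pairs in which both copies were measured. Both copies were called in 3 pairs between the medial zone and the parenchyma, exactly 1 copy in 16 and neither in 8. Among 1764 other such pairs in the table, 19.0% had both copies called and 41.8% exactly 1, against 11.1% and 59.3% of the kcn pairs. Between the dorsal SVZ and the parenchyma both copies were called in 1 kcn pair and exactly 1 in 11, or 3.7% and 40.7%, against 8.11% and 32.7% of the other pairs. Between the medial zone and the dorsal SVZ both were called in 5 and exactly 1 in 11, or 18.5% and 40.7%, against 9.47% and 31.5%. Copies of a pair have different probe sets, so a call in only 1 copy does not show that the copies differ.

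The widest gaps were in named pairs. For kcnj10, the a copy differed by -0.10 and the b copy by 3.89 between the medial zone and the parenchyma. For kcnip1, the a copy differed by 2.32 and the b copy by -0.37. For kcnj19, the a copy differed by -0.45 and the b copy by -2.21. In kcnip4 both copies were called with opposite signs, -0.94 for the a copy and 0.38 for the b copy, the second at low signal. Between the medial zone and the dorsal SVZ, kcnk10 was the other such pair, at 0.61 for kcnk10a and -0.52 for kcnk10b. The pair kcnc1 moved together: kcnc1a and kcnc1b were 0.73 and 1.23 higher in the medial zone than in the dorsal SVZ. The difference between copies was not tested.

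**Figure D4:**
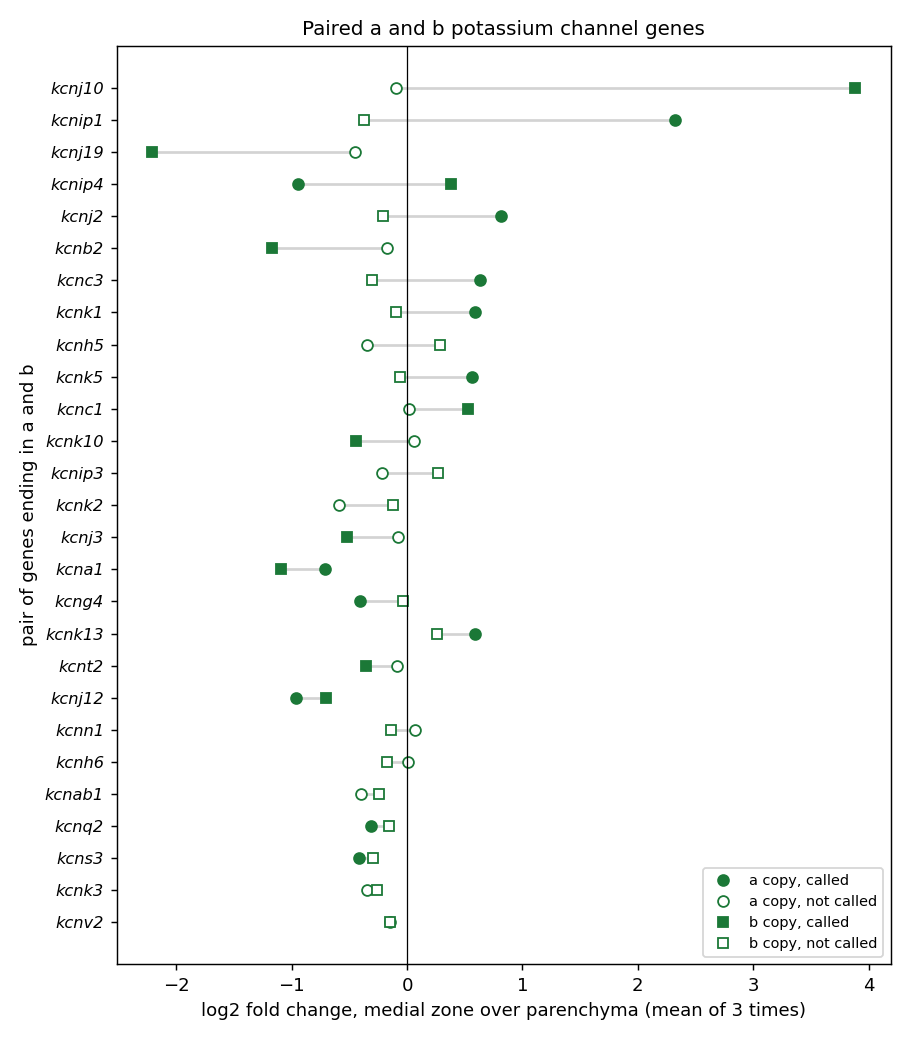
Log2 fold change of medial zone over parenchyma, averaged over 3 times (x axis), for 27 pairs of potassium channel genes ending in a and b (y axis). Circles are a copies and squares b copies, filled where the gene was called, and pairs are ordered by the distance between copies. The kcnj10 pair lies farthest apart.

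Neighbouring genes were compared through the RefSeq gene order. The gene kcnj2a lies next to kcnj16a, and their medial zone minus parenchyma differences were 0.82 and -0.03. The gene kcnj5 lies next to the kcnj1a cluster, and was -0.44 (SE 0.14) in that comparison, whereas its neighbour kcnj1a.1 was 0.09 and was not called. The neighbours kcna6a and kcna1a were both lower in the medial zone, with differences of -0.29 (SE 0.10) and -0.71 (SE 0.20), the first at low signal. For the 5 genes with a further probe set, kcnj3b gave medial zone minus parenchyma differences of -0.52 and -0.51 on its probe sets. The probe sets of kcnq3 gave dorsal SVZ minus parenchyma differences of -0.55 and -0.22.

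After the lesion few kcn genes were called, and few of all genes were. In the parenchyma at day 2 against unlesioned parenchyma 3 of 119 were called, 1 higher and 2 lower, against 2.04% of all genes, 1.7% higher and 0.332% lower. The gene kcna3a encodes a form of Kv1.3, a channel known in mammals from T cells and microglia as well as neurons. It measured 7.47, 7.13 and 7.22 at day 2 and 6.30 and 6.65 in unlesioned parenchyma. The log2 fold change was 0.80 (SE 0.18, limma adjusted p = 0.019). The call was lost without day 2 replicate 1 (limma adjusted p = 0.070) and without unlesioned replicate 1 (adjusted p = 0.25).

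The sodium-activated channel gene kcnt2b measured 5.44, 6.08 and 5.31 at day 2 and 6.50 and 6.45 in unlesioned parenchyma. The log2 fold change was -0.87 (SE 0.21, limma adjusted p = 0.025), and the call was lost without any of 4 of the 5 arrays compared, day 2 replicate 2 being the exception, with adjusted p values between 0.081 and 0.15. The leak channel gene kcnk2a, a form of TREK-1, measured 2.97, 3.34 and 2.81 at day 2 and 3.43 and 6.28 in unlesioned parenchyma. The log2 fold change was -1.82 (SE 0.47, limma adjusted p = 0.042), and it rested on the unlesioned value of 6.28, since the 25 other arrays of the series lay between 2.56 and 3.76. Without that array the log2 fold change was -0.39 by limma (adjusted p = 0.70). With the replicate number as a block the limma adjusted p of kcnk2a was 0.069, with the block set only within a time where numbers paired it was 0.059, and without any 1 of the day 2 arrays it was 0.051 to 0.13. None of the 3 genes was called with array weights, with the parenchyma fitted alone or without the parenchyma arrays of lowest weight. At an unadjusted p under 0.05 there were 13 of 119 kcn genes in this comparison, against 2417 of all 19260 genes.

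**Figure D5:**
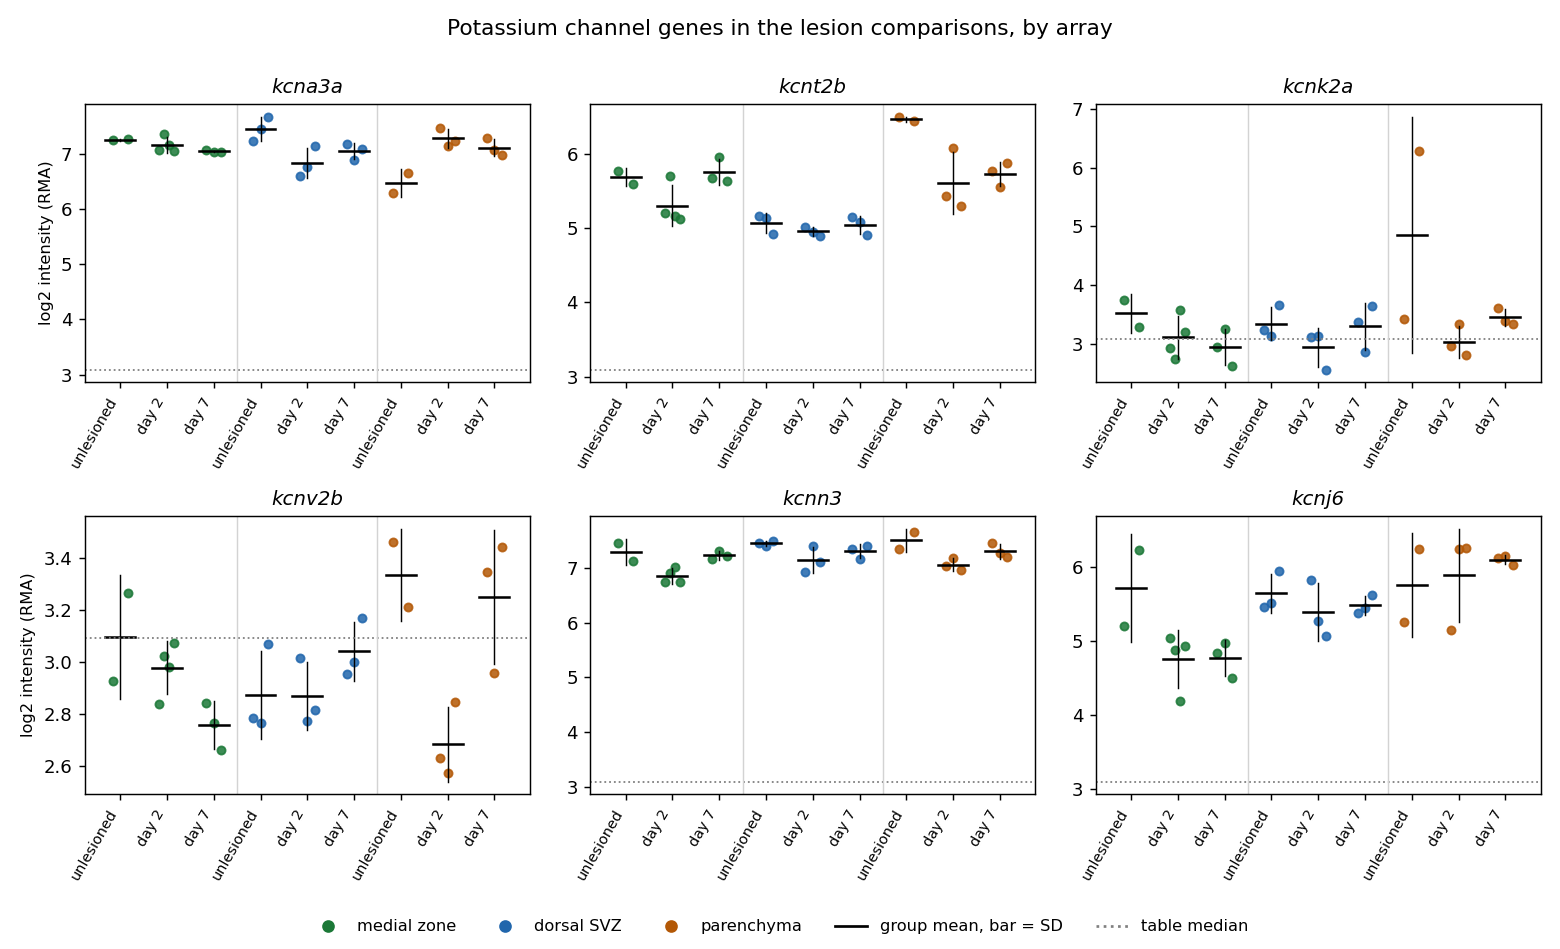
Log2 intensity (y axis) of 6 potassium channel genes on every array (points) in the 3 regions at 3 times (x axis), with the group mean and SD as bars and the table median of 3.09 dotted. In the parenchyma kcna3a is higher and kcnt2b lower at day 2 than in unlesioned tissue, and the unlesioned mean of kcnk2a rests on 1 array at 6.28.

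Microglia and macrophage markers moved with the lesion. Their mean per array ran from 6.92 to 7.83 in the parenchyma at day 2 and from 4.34 to 4.52 in unlesioned parenchyma. Neuronal markers gave no call in this comparison, and their mean ran from 8.54 to 8.92 at day 2 and from 8.60 to 8.90 in unlesioned parenchyma. The part of immune cell content in the level of kcna3a was not tested.

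No kcn gene was called at day 2 in either ventricular region. In the dorsal SVZ 0 of 119 were called by limma, against 0.27% of all genes. At an unadjusted p under 0.05 there were 3 kcn genes, against 1309 of all 19260 genes. The first kcn gene by p was kcna3a, at 6.60, 6.76 and 7.14 at day 2 and 7.22, 7.45 and 7.67 in unlesioned dorsal SVZ. It differed by -0.61 on the log2 scale (SE 0.16, limma adjusted p = 0.20). The next were kcnt1a at 0.65 (SE 0.23) and kcnj3b at -0.63 (SE 0.26). In the medial zone 0 were called, against 0.493% of all genes. At an unadjusted p under 0.05 there were 7 kcn genes, against 1615 of all 19260 genes. The first kcn genes were kcnj6 at -0.96 (SE 0.33), kcnn3 at -0.44 (SE 0.16) and KCNH3 at -0.87 (SE 0.35). The values of kcnj6, a G-protein-gated rectifier gene, were 5.04, 4.87, 4.18 and 4.92 at day 2 and 5.20 and 6.23 in the unlesioned medial zone. The small-conductance calcium-activated channel gene kcnn3 measured 6.74, 6.92, 7.02 and 6.74 at day 2 and 7.45 and 7.12 in the unlesioned medial zone (limma adjusted p = 0.37).

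At day 2 against unlesioned tissue, the kcn genes with a positive difference numbered 37 of 119 in the medial zone, or 31.1%, against 49.1% of all genes. They numbered 44 in the dorsal SVZ, or 37%, against 52.8%, and 54 in the parenchyma, or 45.4%, against 49.5%. The median log2 differences were -0.10, -0.08 and -0.05 in these regions in the same order. Of 14 neuronal markers, 1 was positive in the medial zone, 2 in the dorsal SVZ and 5 in the parenchyma. The part of neuron content in these signs was not tested.

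The direct test of regional responses called 1 gene. The day 2 change of kcna3a in the dorsal SVZ minus that in the parenchyma was -1.41 (SE 0.25, limma adjusted p = 0.031), where 0.0519% of all genes were called. The opposite signs, -0.61 in the dorsal SVZ and 0.80 in the parenchyma, and the unlesioned difference of 0.97 share the same unlesioned arrays. The call was lost with the replicate number as a block (limma adjusted p = 0.074) and without any of 6 of the 11 arrays compared, with adjusted p values between 0.074 and 0.13. These were day 2 replicates 1 and 2 and unlesioned replicates 2 and 3 of the dorsal SVZ, and day 2 replicate 3 and unlesioned replicate 1 of the parenchyma. Medial zone values of kcna3a stayed between 7.03 and 7.35 on all 9 arrays. For the medial zone against the parenchyma 0 kcn genes were called, against 0.0104% of all genes. At an unadjusted p under 0.05 there were 7 kcn genes, against 1406 of all 19260 genes. For the medial zone against the dorsal SVZ 0 kcn genes were called, against 0% of all genes. At an unadjusted p under 0.05 there were 2 kcn genes, against 606 of all 19260 genes.

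At day 7 no kcn gene was called against unlesioned tissue by limma. Of all genes, 0.125% were called in the parenchyma and 0% in both the dorsal SVZ and the medial zone. At an unadjusted p under 0.05 there were 2075, 858 and 784 of all 19260 genes in the parenchyma, dorsal SVZ and medial zone. At that threshold the kcn genes numbered 18, 4 and 5 of 119. The first by p in the parenchyma was the inward rectifier gene kcnj4, at 2.93, 3.16 and 3.26 at day 7 and 3.97 and 3.73 in unlesioned parenchyma, differing by -0.73 on the log2 scale (SE 0.20, limma adjusted p = 0.15). There kcnt2b differed by -0.74 (SE 0.21) and kcna3a by 0.63 (SE 0.18), with the same signs as at day 2 and against the same unlesioned arrays. In the dorsal SVZ, kcna1b was first, at 5.67, 5.34 and 5.15 at day 7 and 7.00, 5.90 and 7.10 in unlesioned tissue. It differed by -1.28 on the log2 scale (SE 0.35, limma adjusted p = 0.70). In the medial zone, kcng1 was first at -0.78 (SE 0.27), with kcng4b at -0.58 (SE 0.20) and kcnj6 at -0.95 (SE 0.35).

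Between day 7 and day 2, 0 kcn genes were called by limma in any region. All genes called were 1.15% in the parenchyma, 0.0519% in the dorsal SVZ and 0.421% in the medial zone. At an unadjusted p under 0.05 there were 1971, 874 and 1685 of all 19260 genes in these regions in the same order. At that threshold the kcn genes numbered 13, 4 and 10 of 119. The closest in the parenchyma were kcnv2b, a silent subunit gene near low signal, at 0.57 (SE 0.16, limma adjusted p = 0.090), and kcnj10b at 0.99 (SE 0.28, adjusted p = 0.10). The glial gene kcnj10b measured 6.06, 5.40 and 5.85 at day 7 and 4.67, 5.002 and 4.66 at day 2 in the parenchyma, with 5.86 and 5.27 in unlesioned parenchyma. With the replicate number as a block the limma adjusted p of kcnj10b was 0.038, and without day 7 replicate 2 that of kcnv2b was 0.026. Deviations of same-numbered day 7 and day 2 parenchyma arrays correlated at -0.055 to -0.021, so the data gave no sign of the pairing this block assumes. Positive differences numbered 82 of 119, or 68.9%, in the parenchyma, against 52% of all genes. They numbered 73, or 61.3%, in the dorsal SVZ, against 47.4%, and 75, or 63%, in the medial zone, against 51.2%. All 14 neuronal markers were positive in the parenchyma between day 7 and day 2, with a median log2 difference of 0.23, and none was called.

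Other genes of membrane excitability were counted in the same comparisons. Of all genes, 11.9% were higher and 7.28% lower in the dorsal SVZ, and 20.6% higher and 13.4% lower in the medial zone, than in parenchyma, and 11.3% were higher and 8.27% lower in the medial zone than in the dorsal SVZ. Of 13 voltage-gated sodium channel genes, 3 were lower and none higher in the dorsal SVZ than in parenchyma, and in the medial zone 4 were lower and 1 higher. Of 44 voltage-gated calcium channel genes, 13 were lower and 1 higher in the dorsal SVZ and 14 lower and 4 higher in the medial zone than in parenchyma, while 12 were higher and 10 lower in the medial zone than in the dorsal SVZ. Of 12 sodium-potassium ATPase subunit genes, 3 were higher and 2 lower in the dorsal SVZ than in parenchyma, with the pump gene atp1a1b 1.63 higher (SE 0.11). Of 13 cation-chloride cotransporter genes, 2 were higher and 1 lower in the dorsal SVZ, and 1 higher and 2 lower in the medial zone, than in parenchyma. Of 4 HCN genes, which encode the channels of the hyperpolarisation-activated current, 2 were higher in the medial zone than in the dorsal SVZ. Of 21 potassium channel partner genes listed 16 were measured, and 2 were higher and 7 lower in the dorsal SVZ than in parenchyma. None of these genes was called in the parenchyma at day 2 against unlesioned parenchyma.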

How the data were processed

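The authors deposited RMA log2 intensities for 75212 probe sets on 26 arrays, made with Affymetrix Expression Console 1.2 per the submitters' processing notes. RNA was extracted and amplified as whole transcripts before labelling, per the labels' protocols. The genome build is not given in the sources used here. Of the probe sets, 20806 carried 1 gene symbol, 855 several and 53551 none, and the first gave 19260 genes. No further normalization was applied, and array number limits the precision. Among the kcn genes 114 of 119 had a gene identifier, and 1 probe set with several symbols, at least 1 of them a kcn symbol, was left out.

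Groups were the 9 combinations of region and time. All 26 arrays entered a single fit, each group with its own mean, in limma 3.58.1 (R 4.3.3) with lmFit and eBayes, giving 18 comparisons with Benjamini-Hochberg adjustment over all genes, and was tested on simulated data. Genes named were up to 8 of the largest called changes in each direction per comparison, the 3 smallest p-values where fewer than 3 were called, the widest and narrowest spread in subfamilies of 4 or more, and gaps between probe sets of a gene. Other members were named after their values were seen. Members, gene lists and tests were chosen with earlier results of these data known. Deviations of same-numbered arrays from their group means correlated at -0.098 to 0.12 between times within a region. Between regions within a time they correlated at 0.147 to 0.239 for the dorsal SVZ and parenchyma at day 2 and at 0.077 to 0.224 for all regions at day 7, and at -0.154 to 0.025 for the other pairs. The numbers were therefore taken to pair the first 2 sets, from the data and not the labels, and a block within a time was added after seeing the data. Alternatives were array medians subtracted, genes of the lowest mean level removed, every probe set tested and the mean of a gene's probe sets. Further alternatives were array weights, a trended robust prior, the replicate block, regions fitted alone and leaving out each array.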

Additional observations from a re-analysis of the deposited data

Results flagged for a closer look

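Among 57 named genes, each examined in the medial zone group of 4 arrays at day 2, 2 had an array far from the others, and chance alone flags about 5% of groups. For kcnt2b, 1 array measured 5.712, against 5.129, 5.161 and 5.212 on the others. For kcnip1a, 1 array measured 6.796, against 8.06, 8.114 and 8.207 on the others.

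The day 2 change of kcna3a differed between regions by the test of the difference itself, at -1.41 for the dorsal SVZ minus the parenchyma (limma adjusted p = 0.031), and the call was lost under several alternatives.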

How the results depend on the processing

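Over 18 counts of called kcn genes, 295 of 323 values under the alternatives lay within 1.5 times the reported count, and over 109 gene results none of 2190 changed direction, while 140 lost and 2 gained a call. The 295 include counts that were 0 in both fits. The gene results were picked for a large change or a small p-value, so a change of direction was unlikely from the start. The count at day 2 in the parenchyma was 0 instead of 3 with array weights, with the regions compared fitted alone, and without both parenchyma arrays of lowest weight, an alternative chosen after seeing the data. Leaving out 1 array gave 0 to 3, with 0 without day 2 replicate 1 and 1 without day 2 replicate 3. The difference of the day 2 change between the dorsal SVZ and the parenchyma gave 0 instead of 1 with every probe set tested, array weights, the replicate block or the regions alone, and 0 to 1 leaving out 1 array. The unlesioned medial zone against dorsal SVZ gave 4 instead of 8 with every probe set tested. With the replicate block, day 7 against day 2 in the parenchyma gave 1 instead of 0, and the 3 region counts were 38 for the medial zone and 22 for the dorsal SVZ against the parenchyma and 30 between the ventricular regions. Between day 7 and day 2, same-numbered parenchyma arrays did not deviate together. Same-numbered arrays deviated together between regions at day 7 and, for the dorsal SVZ and parenchyma, at day 2. With a replicate block within these sets, added after seeing the data, the 3 region counts were 46, 29 and 38, of which 43, 24 and 35 genes were called in the unblocked fit too. That block ended 3 calls of named genes: kcnk2a at day 2 in the parenchyma (limma adjusted p = 0.059), kcna4 between the unlesioned dorsal SVZ and parenchyma (0.055) and kcnip1a between the unlesioned medial zone and dorsal SVZ (0.057).

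Leaving out 1 array gave 0 to 1 at day 7 in the parenchyma against unlesioned tissue (1 without day 7 replicate 1 or unlesioned replicate 1), 0 to 1 for day 7 against day 2 there (1 without day 7 replicate 2), and 0 to 1 for the difference of the day 2 change between the medial zone and the parenchyma (1 without unlesioned replicate 1 of the parenchyma). The region counts over 3 times ran from 36 to 46, from 19 to 27 and from 23 to 36 for medial zone against parenchyma, dorsal SVZ against parenchyma and medial zone against dorsal SVZ, the 23 being without replicate 1 of the unlesioned medial zone. In unlesioned tissue they ran from 6 to 8, from 7 to 11 and from 4 to 6. Groups of 2 arrays in the unlesioned medial zone and parenchyma limit these, and genes near the table median have differences limited by low signal.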
